A study of Mus musculus with 14 samples.

Results

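Nfib encodes nuclear factor I B (NFIB), a DNA-binding transcription factor, and the regions of accessible chromatin in and around its gene are described here in 7 cell lines from mouse small cell lung cancer. The gene lies on chromosome 4 from 82290173 to 82506751 (GRCm38), and the window studied adds 100 kb on either side, from 82190173 to 82606751. Overlapping peaks of the 14 libraries (by 1 bp or more) were joined into regions, and 56 of the 177684 merged regions of the genome fell in the window. The assay was ATAC-seq, where a transposase cuts and tags DNA in accessible chromatin, so that a peak marks a promoter, an enhancer or another open element. Membership of the window rests on position alone, although the gene was picked with earlier results of these data known.

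NFIB belongs to the nuclear factor I family with NFIA, NFIC and NFIX, which bind the palindrome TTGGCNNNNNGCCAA as dimers, or its TTGGC arm more weakly. In the lung, NFIB takes part in the maturation of epithelium and mesenchyme before birth. In small cell lung cancer, a neuroendocrine tumor that lacks RB1, the Nfib locus is recurrently amplified, and high NFIB has been tied to open chromatin at distal elements and to metastasis. Nfib is transcribed towards lower coordinates, so its promoter lies at the 82506751 end, the 5′ flank above it and the 3′ flank below 82290173.

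All lines carried the RPR2 genotype, which stands in this field for conditional deletion of tumor suppressor genes, among them Rb1 and Rbl2. The 3 RPR2 lines were 1373M1, from a liver metastasis, and 12N1G and N2N1G, from lymph node metastases. The 4 RPR2;Nfibf/f lines, written Nfibf/f, also carried floxed Nfib and comprised the liver metastasis lines 1398M1 and 1399M4 and the lung tumor lines 1398P2 and 1399P1. No lymph node line was Nfibf/f and no lung tumor line was RPR2, so genotype and tissue of origin can be told apart only within liver metastases, where there was 1 RPR2 line. The labels do not give the Cre driver, the floxed exons, the age of the mice or whether a line is 1 clone, and the same number opens the names of 1398M1 and 1398P2, and likewise of 1399M4 and 1399P1. Each line had 2 libraries, labelled replicates 1 and 2, that may be technical replicates of the same cells. The line was therefore the unit of every test in the comparisons that follow, apart from 1 alternative fit on libraries at the end. Lines that share a number may come from the same mouse. They were counted as separate lines and no alternative joined them. If they do share a mouse, the 4 Nfibf/f lines are not independent, and the p-values and SDs may understate the uncertainty. The p-values over lines judge a difference only against the variation between these lines.

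Peaks per library numbered 65009 to 84220 in 13 libraries and 33558 in replicate 2 of 1398P2, whose depth was also the lowest. Depth is given as the floor, the lowest local background of a library in fragments per bp, which was 0.507 in that library and 0.632 to 1.134 in the others. Summits in replicate 2 of 1398P2 also held fewer fragments relative to the floor. Their median, over regions with a peak in all 14 libraries, was 31.6 times the floor, against 57.3 to 90.1 in the others. What made this list short was not tested. An absent peak therefore means a peak not detected in that list, at its depth and enrichment. The labelled cell type was checked at gene ends: 5 of 6 neuroendocrine markers had a peak within 1 kb of a gene end in all 14 libraries, and the sixth, Ncam1, in 13. Markers of other cell types gave mixed counts. Of the 4 hepatocyte markers, Apoa1 had a peak in all 14 libraries, Ttr in 3 and Alb and Afp in 0. Of the blood cell markers, Spi1 had one in 14 libraries, Cd3e in 3 and Ptprc in 0. Of the 4 fibroblast and endothelial markers, Col1a1 had one in 14, Pdgfrb in 3, Pecam1 in 0 and Cdh5 in 5 RPR2 and 0 Nfibf/f libraries. For Rb1 and Rbl2, all 14 libraries showed a peak by a gene end. The same was true of Nfib, so the peak lists give no sign of the labelled difference in the Nfib allele there, and a list of peaks does not show where fragments are missing.

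Of the 56 regions, 9 lay in the 3′ flank, 32 in the gene body, 1 over the promoter end and 14 in the 5′ flank. The nearest protein-coding neighbours, Zdhhc21 and Mpdz, lie 292 kb above and 847 kb below the gene, so no other protein-coding gene shares the window. It does hold 4 noncoding genes: 2310067E19Rik, inside Nfib (82450058 to 82498232, 6 regions), and Gm11266 (82507989 to 82547292, 6 regions), Gm11267 (82580145 to 82588264, 2 regions) and Gm42305 (82605318 to 82606917, 0 regions) in the 5′ flank. The annotation used gives gene extents without strand or exons, so no region is assigned to an exon, intron or UTR.

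The start of Gm11266 lies 1238 bp from the promoter end of Nfib, close to the strongest peaks of the window. Its RefSeq promoter window (GRCm38.p6, chr4:82507739-82508038, plus strand, 250 bases before to 50 after the start) is shown because it is the annotated start next to the Nfib promoter, yet no peak of any library overlapped it. The nearest region, the one over the promoter end of Nfib, stopped 364 bp short of it. Capitals mark the letters TTGGC or their complement GCCAA.

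Gm11266 promoter window: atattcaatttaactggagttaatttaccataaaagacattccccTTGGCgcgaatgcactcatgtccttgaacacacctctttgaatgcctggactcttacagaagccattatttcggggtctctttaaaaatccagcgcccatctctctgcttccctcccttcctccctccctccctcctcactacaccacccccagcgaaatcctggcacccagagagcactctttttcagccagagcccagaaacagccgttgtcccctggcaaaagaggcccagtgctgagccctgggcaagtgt

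This window held 1 match to TTGGC on either strand and 0 matches to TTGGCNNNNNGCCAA, which contains the shorter motif. Among 32851 RefSeq promoter windows of the same length, 46.7% held TTGGC on either strand and 0.0365% held the full palindrome. A match to the shorter motif is thus common, and it is a description of letters, not a binding site. The same RefSeq table matched Gm42305, Nfia, Nfic and Nfix, and not Nfib.

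The promoter end of Nfib was open in every line. The region over it (82504286 to 82507375, 3090 bp) had a peak in 14 of 14 libraries. The highest summit, the base of strongest signal, lay between 178 and 421 bp inside the gene, over a span of 243 bp (82506330 to 82506573). Summit fold enrichment over local background, as the authors' peak caller gave it, was 7.53 and 8.22 in 1373M1, 7.49 and 8.46 in 12N1G and 8.46 and 8.04 in N2N1G. It was 6.96 and 7.83 in 1398M1, 8.93 and 10.4 in 1399M4, 6.78 and 5.18 in 1398P2 and 7.98 and 7.45 in 1399P1. Ranked within each library, where 100 is the strongest peak, these folds stood at percentiles 43.4 to 60.6 in RPR2 libraries (median 54.0) and 37.4 to 74.0 in Nfibf/f libraries (median 55.9). The percentiles of the genotypes overlapped throughout, near the middle of each list. By fold over local background, the promoter was not among the strongest peaks of any library.

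Of the 3 other regions with a peak in all 14 libraries, all were in the 5′ flank. The strongest lay 6.5 kb upstream of the promoter end, within Gm11266 (82512792 to 82513638), with summits within 27 bp of each other (82513282 to 82513309). Its fold stood at percentile 81.7 to 96.2 (median 91.8) in RPR2 and 80.6 to 97.7 (median 94.4) in Nfibf/f libraries, and it held the highest fold of the window in 12 of 14 libraries. The highest fold was 14.4 in replicate 1 of 1398P2, at the region 47.3 kb upstream, and 13.6 in replicate 2 of 1373M1, at a region in the 3′ flank (82271549 to 82272000). A weaker region 9.9 kb upstream (82516446 to 82516775), also within Gm11266, stood at 12.2 to 36.4 (median 14.8) and 13.1 to 51.1 (median 29.1). The fourth, 82.9 kb upstream (82589339 to 82589982) and beyond Gm11267, stood at 57.4 to 77.2 (median 68.6) and 21.4 to 90.8 (median 80.4). The lowest of these, 21.4, was replicate 2 of 1398P2. Over the genome 10.0% of merged regions had a peak in all 14 libraries, against 4 of 56 here, a share of 7.14% that is near that background.

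**Figure D1:**
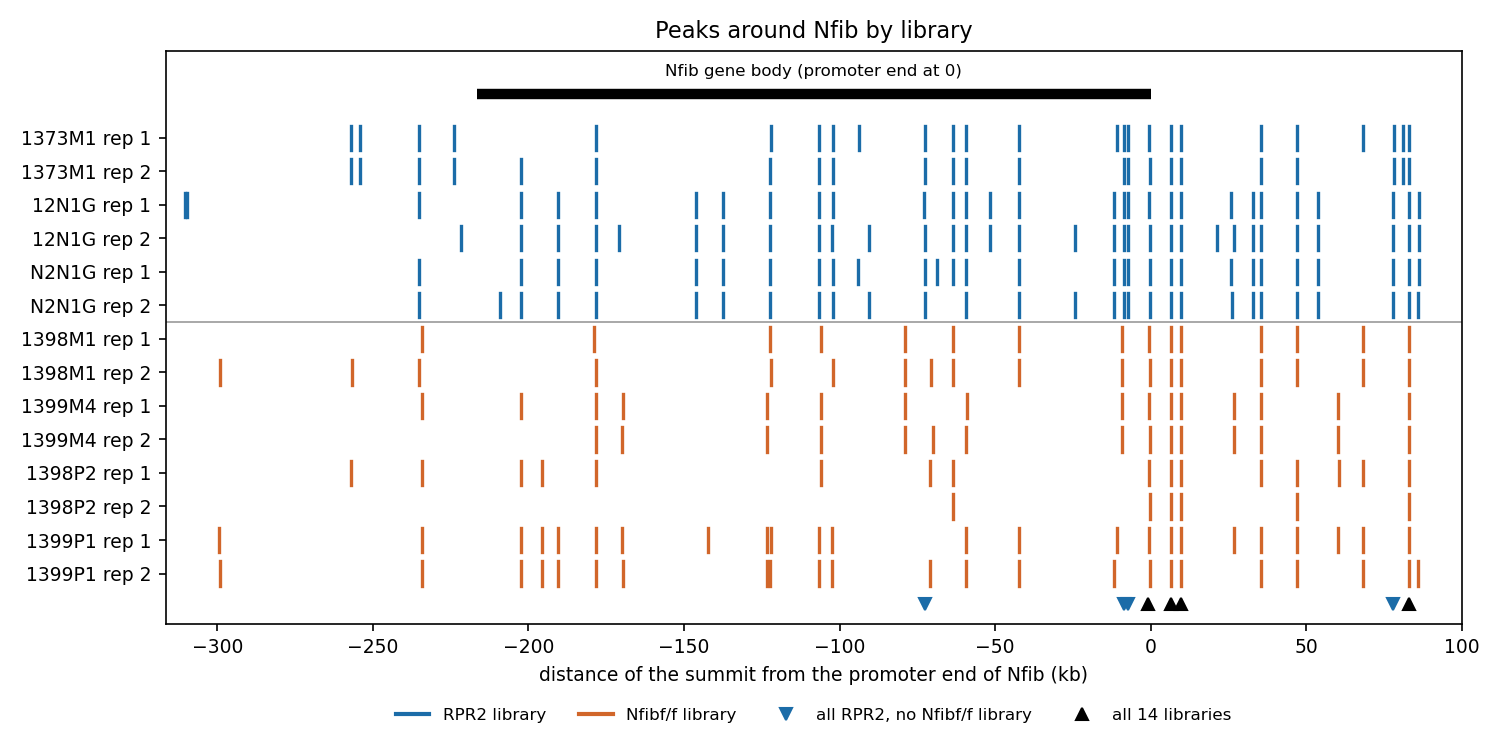
Peak summits in the Nfib window, by library (rows) and distance from the promoter end of the gene in kb (x axis, negative inside the gene). RPR2 libraries are above the line and Nfibf/f libraries below; black triangles mark the 4 regions with a peak in all 14 libraries and blue triangles the 4 with a peak in all 6 RPR2 and 0 of 8 Nfibf/f libraries.

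The comparison of genotypes asked whether lines with floxed Nfib differ in the open elements of the gene. Peaks in all 6 RPR2 libraries and 0 of 8 Nfibf/f libraries were found in 4 of 56 regions, 3 inside the gene and 1 in the distal 5′ flank. Over the genome 0.814% of merged regions had that pattern. The reverse pattern, a peak in all 8 Nfibf/f libraries and 0 of 6 RPR2 libraries, was found in 0 of 56 regions, against 0.429% over the genome. Of the remaining regions outside the 4 common to all libraries, 12 had a peak in 1 library only, 10 in several RPR2 libraries only, 9 in several Nfibf/f libraries only and 17 in libraries of both genotypes.

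The RPR2-specific regions had low folds over local background. The region 72.6 kb inside the gene (82433971 to 82434302) had a fold of 4.50 and 3.30 in 1373M1, 2.81 and 4.86 in 12N1G and 3.85 and 3.68 in N2N1G, at percentiles 1.16 to 17.2 of each library. The regions 8.4 kb inside (82498053 to 82498570, over the upper end of 2310067E19Rik) and 7.3 kb inside (82499317 to 82499634) stood at percentiles 1.83 to 11.5 and 1.77 to 10.9. The distal region 78.0 kb upstream (82584519 to 82584932, within Gm11267) had the highest folds of the 4. Its fold was 4.56 and 6.53 in 1373M1, 5.76 and 6.54 in 12N1G and 5.86 and 5.33 in N2N1G, at percentiles 12.9 to 37.6. Its summits lay within 23 bp of each other. Pileups, which are not divided by local background, were 31 to 53 fragments in lymph node libraries at the regions 8.4 and 7.3 kb inside, and 44 to 55 at the distal one. In 1373M1 they were 15 to 19 and 21 to 33. At the region 72.6 kb inside, pileups were lower, at 10 to 16 fragments in lymph node libraries and 9 and 5 in 1373M1. With a −log10 q of at least 3 required, that region kept a peak in 4 of 6 RPR2 libraries, and each of the others in 6 of 6. Local background at the regions 8.4 and 7.3 kb inside was 10.6 to 18.4 times the floor in lymph node libraries and 4.52 to 5.15 times in 1373M1. When every list was cut to its strongest 33558 peaks, the number in the shortest list, the count of RPR2-specific regions went from 4 to 0. The distal region then kept a peak in 5 of 6 RPR2 libraries, and the 3 inside the gene in 0 of 6. Without 1373M1 the count was 8, and with the liver metastasis lines alone 7 regions were specific to RPR2 and 2 to Nfibf/f. Among liver lines 1373M1 was the only RPR2 line, so there the rule is looser and a difference of genotype cannot be told from one of that line. The share over the genome under these looser rules was not worked out.

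The share of RPR2 elements that were also found in a Nfibf/f line was lower in the window than over the genome for each of the 4 lines, on small counts. In the window 16 regions had a peak in all 6 RPR2 libraries. Both libraries of 1398M1 had a peak in 8 of these 16, against 82.9% of the 37431 such regions of the genome. Both libraries of 1399M4 had 8, against 70.0%, those of 1398P2 had 5, against 51.7%, and those of 1399P1 had 12, against 84.8%. The 4 lines share the RPR2 libraries they are set against, so these are not independent comparisons, and no test was made.

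The number of regions with a peak was 25 and 23 in 1373M1, 30 and 32 in 12N1G and 29 and 29 in N2N1G. In Nfibf/f lines it was 15 and 18 in 1398M1, 16 and 15 in 1399M4, 16 and 6 in 1398P2 and 24 and 23 in 1399P1. The lymph node lines were highest and 1398P2 lowest, and the lung tumor line 1399P1 reached the level of 1373M1. Averaged over the 2 libraries of a line, the RPR2 mean was 28.0 ± 3.61 regions (SD, n = 3), the Nfibf/f mean 16.6 ± 5.17 (SD, n = 4). The line means did not overlap, but the lowest RPR2 line, at 24, and the highest Nfibf/f line, at 23.5, nearly met. The difference of 11.4 regions had p = 0.0571 in a two-sided exact permutation test over the 35 assignments of lines, of which the smallest possible p is 0.0286. It was thus not past 0.05.

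**Figure D2:**
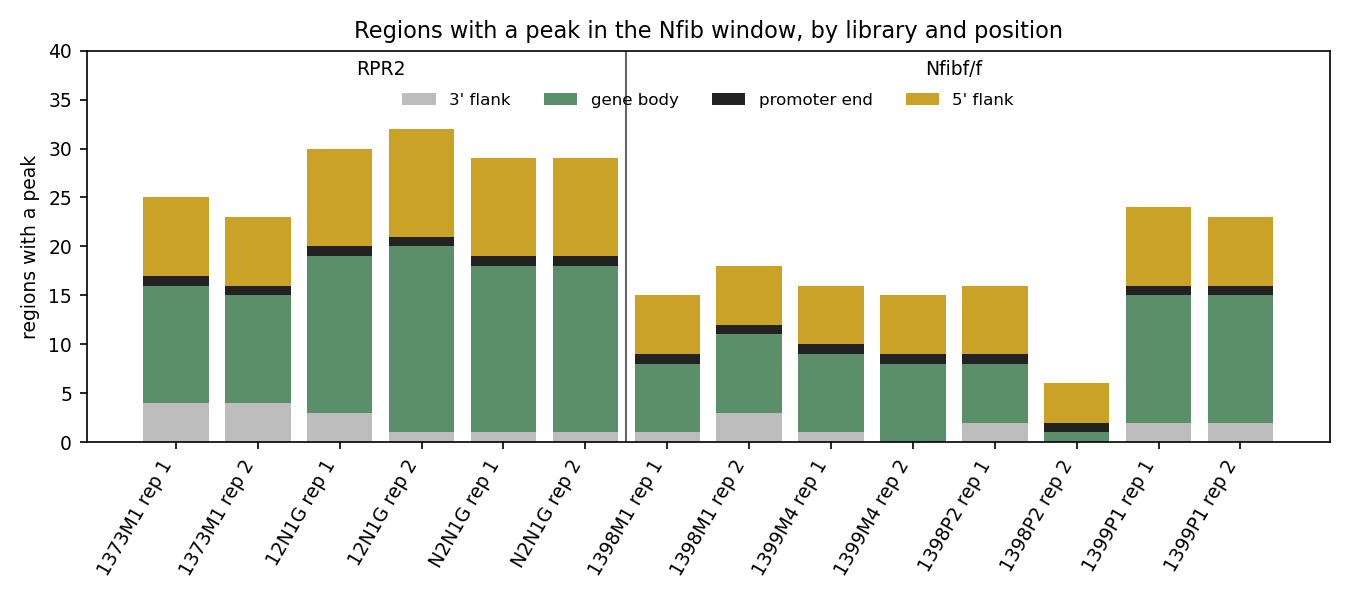
Number of regions with a peak in each library (bars, stacked by position, axis from 0), RPR2 libraries on the left and Nfibf/f libraries on the right of the line. The lymph node lines reach 29 to 32, 1373M1 23 and 25, and the Nfibf/f libraries 6 to 24.

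By position, a split made after the totals were seen, most of the difference was in the gene body. RPR2 lines had 15.3 ± 3.33 body regions and Nfibf/f lines 8 ± 3.89 (SD, n = 3 and 4; exact permutation p = 0.0857, two-sided). The 5′ flank had 9.33 ± 1.61 and 6.25 ± 0.866 (exact permutation p = 0.0571), and the 3′ flank 2.33 ± 1.53 and 1.38 ± 0.750 (exact permutation p = 0.457). After Benjamini-Hochberg adjustment over the 3 positions the exact permutation p-values were 0.129, 0.129 and 0.457. No position passed.

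A fit across all protein-coding genes did call Nfib, narrowly. limma on log2(regions + 0.5), with the number of regions of each line scaled by its total over genes, gave a log2 difference of 0.84 ± 0.16 (SE) in favour of RPR2 lines (Benjamini-Hochberg adjusted p = 0.0476 over 18197 genes, those whose lines averaged 3 regions or more). All 3 RPR2 lines lay above all 4 Nfibf/f lines on this scale, at 24.9, 31.6 and 29.8 scaled regions in 1373M1, 12N1G and N2N1G against 16.7, 14.1, 12.8 and 20.7 in 1398M1, 1399M4, 1398P2 and 1399P1. In all 203 genes were called, 75 with more regions in RPR2 lines, which is 0.412% of genes tested, and 128 with more in Nfibf/f lines. The median log2 difference over all genes was -0.02, and that of Nfib stood at percentile 98.9.

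This call depends on which lines are in the fit, and it was kept in 1 of the 7 fits that left out a line. Without 1373M1 the limma adjusted p was 0.0211. It was 0.17 without 12N1G (log2 difference 0.77), 0.175 without N2N1G (0.81), 0.126 without 1398P2 (0.74), 0.0543 without 1398M1 (0.86), 0.0804 without 1399M4 (0.78) and 0.0613 without 1399P1 (0.96), each a limma adjusted p. Without both lymph node lines the log2 difference was 0.64, which leaves 1 RPR2 line, so no p is given. With those lines averaged into 1 line it was 0.79 (limma adjusted p = 0.179). The direction was the same in every alternative run. The adjusted p also depends on the other genes of a fit. Unadjusted, the limma p of Nfib was 0.000316 in the main fit, 4.8e-05 without 1399P1 and 0.000257 without 1373M1. It was 0.000915 to 0.00173 without any other single line. Genes called went from 203 to 6 without 1399P1, 0 without 12N1G or 1398P2 and 723 without 1373M1.

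The height of the peaks common to all 14 libraries was also set side by side. The pileup of a summit, the number of fragments over it, was solved from its fold and p-value. It was divided by the floor and then by the median of the same quantity over the 17797 regions common to all libraries, so that 1 is a typical shared region of that library. This measure was chosen after values were seen, and no test was made on it.

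At the promoter end the scaled pileup was 1.33 and 1.67 in 1373M1, 3.35 and 3.75 in 12N1G and 4.2 and 4.19 in N2N1G. In Nfibf/f lines it was 0.930 and 1.19 in 1398M1, 0.678 and 0.788 in 1399M4, 0.899 and 0.938 in 1398P2 and 1.09 and 1.26 in 1399P1. The lymph node lines stood apart from the rest, and every RPR2 library was above every Nfibf/f library. The mean of RPR2 lines was 3.08 ± 1.41 (SD, n = 3), that of Nfibf/f lines 0.971 ± 0.191 (SD, n = 4), a ratio of 3.17. Without both lymph node lines the ratio was 1.54.

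The other common regions ran the same way, with the lymph node lines highest. At 6.5 kb upstream the means were 5.13 ± 2.55 and 1.91 ± 0.419, but 1373M1, at 2.20, lay below 1398M1, at 2.31, and 1399P1, at 2.22. At 9.9 kb upstream they were 1.48 ± 0.517 and 0.680 ± 0.134, and at 82.9 kb upstream 1.73 ± 0.758 and 0.598 ± 0.124. In both of these all RPR2 lines were above all Nfibf/f lines, with 1373M1 at 0.885 and 0.879 and the highest Nfibf/f line at 0.783 and 0.701. Single libraries did overlap at 9.9 kb, where replicate 1 of 1373M1 was at 0.821 and replicate 2 of 1399P1 at 0.962. Every RPR2 line thus exceeded every Nfibf/f line in 3 of the 4 common regions, and in 6.46% of common regions over the genome. The reverse held in 0 of 4, and in 8.34% over the genome. The 4 regions lie within 83 kb and are not independent of each other.

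**Figure D3:**
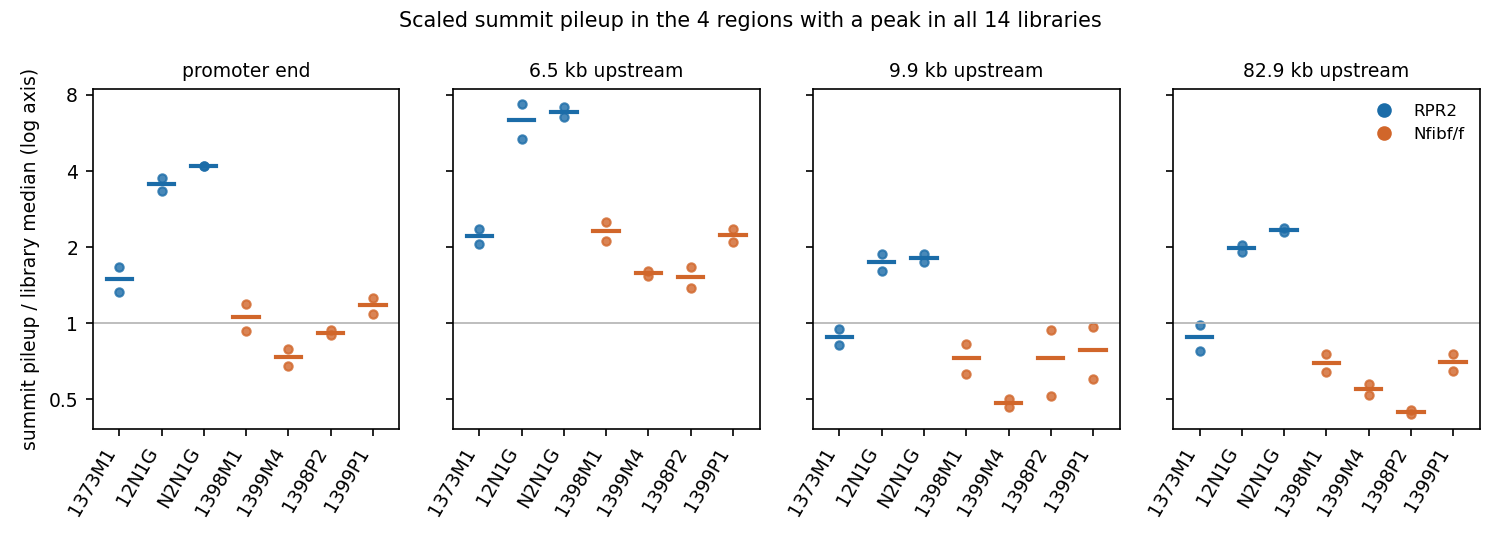
Summit pileup of the 4 regions common to all libraries, divided by the library's median over such regions (log axis; points are libraries, bars the mean of a line; the grey line marks 1). 12N1G and N2N1G are highest in each panel, and 1373M1 lies above all Nfibf/f lines in 3 of 4 panels, but not at 6.5 kb upstream.

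Pileups and folds thus gave different pictures of the same peaks, since a fold is taken over local background and that background differed between lines. Expressed in multiples of the floor, the lower quartile of local background over the summits of the window was 3.6 to 4.76 in the 4 lymph node libraries, 1.78 and 1.81 in 1373M1 and 1.00 to 1.66 in Nfibf/f libraries. The lowest value of the window was 1.24 to 2.06 in lymph node libraries and 1.00 to 1.06 in the other 10, so no summit of the window sat on floor background in a lymph node library. Local background includes fragments of the peaks themselves and of their neighbours, so it is not independent of the number and height of peaks.

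Along chromosome 4, in 1 Mb bins, the lower quartile of local background from 82 to 83 Mb was 2.30 to 2.75 in lymph node libraries, 1.70 and 1.76 in 1373M1 and 1.00 to 1.91 in Nfibf/f libraries. From 83 to 84 Mb it was 1.00 to 1.13 in lymph node libraries and 1.00 to 1.73 in the others. From 81 to 82 Mb, on the other side, it was 1.25 to 1.63 and 1.00 to 1.33. Lymph node libraries were all above the others in the bin that holds Nfib, and also in 3 of the other 13 bins from 76 to 90 Mb. In these it was 1.37 to 2.14 against 1.00 to 1.06 (76 to 77 Mb), 1.6 to 1.79 against 1.00 to 1.52 (86 to 87 Mb) and 1.81 to 2.53 against 1.00 to 1.37 (87 to 88 Mb). Peak lists hold no measure of copy number apart from such signal, so more copies of the locus and more accessible copies cannot be told apart, and the part of local background in the counts was not tested.

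**Figure D4:**
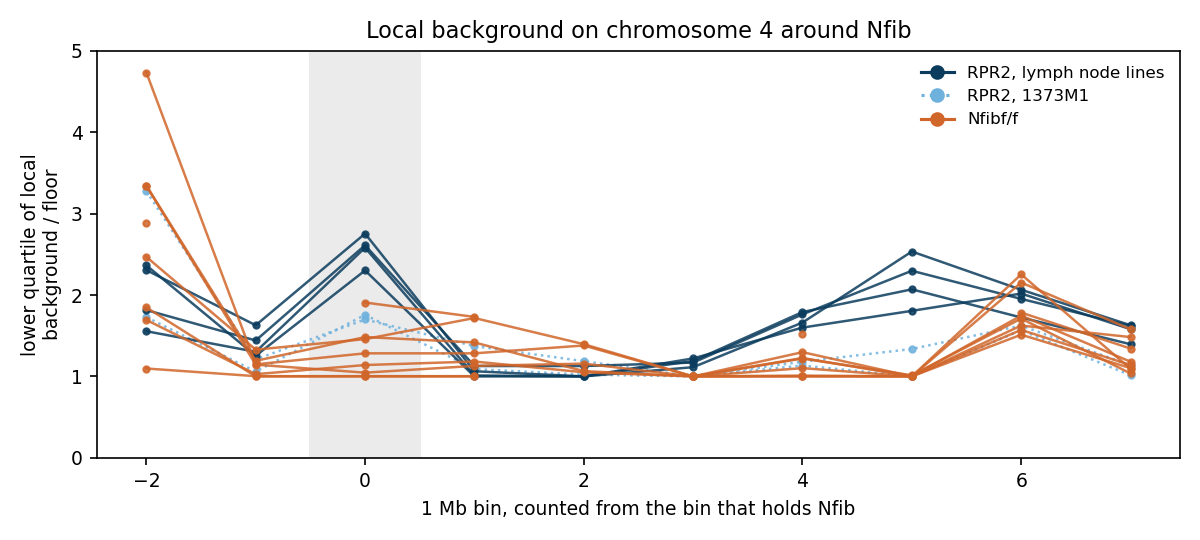
Lower quartile of local background divided by the floor, for each library, in 1 Mb bins counted from the bin that holds Nfib (grey). Lines join neighbouring bins with at least 10 summits. In the grey bin the 4 lymph node libraries lie at 2.30 to 2.75, above the other 10, and in the next bin at 1.00 to 1.13.

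Some distal elements of the 5′ flank were found in most libraries but not all. A region 35.4 kb upstream, within Gm11266 (82541888 to 82542498), was called in every RPR2 library and in 7 of 8 libraries of the other genotype. It was missing only in replicate 2 of 1398P2, the library with the fewest peaks. Another 47.3 kb upstream (82553690 to 82554441) had a peak in 6 of 6 RPR2 libraries and in both libraries of 1398M1, 1398P2 and 1399P1, but in 0 of 2 of 1399M4. Its fold was 14.3 and 9.29 in 1373M1, 9.25 and 9.13 in 12N1G, 10.4 and 8.85 in N2N1G, 6.28 and 9.38 in 1398M1, 14.4 and 6.61 in 1398P2 and 10.5 and 9.54 in 1399P1. It was thus a clear peak in 6 of 7 lines, and not called in 1399M4 at floors of 0.999 and 0.635 fragments per bp.

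Certain distal elements were called only in the lymph node lines or in a single line. In the 5′ flank the regions 33.2 kb (82539473 to 82540401) and 53.8 kb (82560335 to 82560776) upstream had a peak in all 4 lymph node libraries and no other. The second of these stood at percentile 44.5 to 80.1 of the lymph node libraries, with pileups of 18 to 30 fragments. Inside the gene a further 2 regions (82360270 to 82360657 and 82369177 to 82369470) had that pattern. Both libraries of 1373M1, and no other, had a peak at 82252243 to 82253030 and 82282495 to 82282871 in the 3′ flank and at 82587612 to 82587936 in the 5′ flank, within Gm11267. By the same criterion, a peak in every library concerned and in no other, 3 regions were found for 1373M1 and 4 for both lymph node lines jointly. The share of regions over the genome with these patterns was not worked out, so whether such counts are unusual was not tested.

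Among flank regions open in both libraries of a single line, 4 more had a peak in 1 library of other lines. They were 82207314 to 82207894 (open in 1399P1), 82249588 to 82250115 (in 1373M1), 82272444 to 82272925 (in 1399P1) and 82566912 to 82567269 (in 1399M4). Peaks at 82272444 to 82272925 were found in 5 of 8 Nfibf/f libraries, from all 4 lines, and 0 of 6 RPR2 libraries, with percentiles of 36.6 to 71.3. That region is the nearest to one specific to Nfibf/f, and it is the 1 region that counts as such when a peak in at least 1 library of every line suffices.

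Inside the gene, elements of the Nfibf/f lines were shared by some lines only. All 4 libraries of the liver lines 1398M1 and 1399M4, and no other, had a peak at 82427444 to 82428355 and at 82497186 to 82497633. All 4 libraries of 1399M4 and 1399P1, which share a number, and no other, had a peak at 82336848 to 82337429 and at 82383433 to 82383721. For these patterns, too, the share over the genome was not worked out. The first of the liver regions stood at percentiles 58.4 to 74.5, higher within its lists than the RPR2-specific regions of the window were within theirs. Libraries of the same line differed as well: both had a peak in 128 pairs of a region and a line, and only 1 of them in 45 pairs, or 35 without 1398P2.

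**Figure D5:**
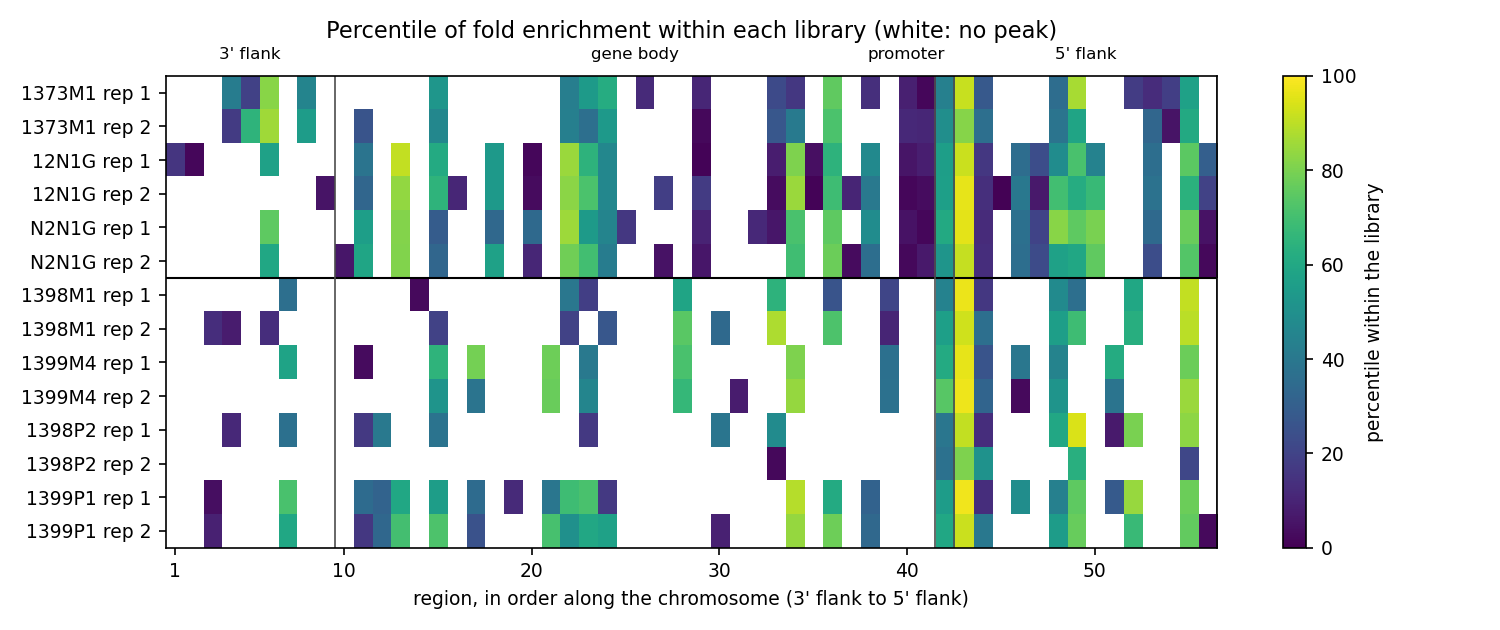
Percentile of summit fold enrichment within each library (colour, 100 strongest; white, no peak) for the 56 regions in chromosomal order, 3′ flank to 5′ flank, with RPR2 libraries above the black line. The region 6.5 kb upstream of the promoter is at 80.6 or above in all 14 libraries, and the regions specific to RPR2 are at 37.6 or below.

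None of the other family members passed the test. The log2 difference of Nfia was 0.33 ± 0.55 (SE; limma adjusted p = 0.769), that of Nfic 0.09 ± 0.09 (limma adjusted p = 0.589) and Nfix 0.10 ± 0.085 (limma adjusted p = 0.514). Whether they differ from Nfib was not tested. Nfia, also on chromosome 4 (97578066 to 98118876), varied most: line 1399P1 held 107.5 regions, the rest 12.5 to 39.5. A peak within 1 kb of a gene end was found in all 14 libraries for Nfic and Nfix, and in 3 RPR2 libraries and 2 Nfibf/f libraries for Nfia.

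The genes most like Nfib in their scaled number of regions over the 7 lines were picked by Pearson's r of log2 values among 18196 other genes, as a description. They were Boc, a co-receptor of Hedgehog ligands (r = 0.999), Atp5mpl, a small subunit of ATP synthase (r = 0.997), Sycp2, of the synaptonemal complex (r = 0.993), Rd3l (r = 0.991) and Ctdp1, a phosphatase of RNA polymerase II (r = 0.990). Rd3l lies beside Atp5mpl, and their windows share regions. Boc had 12.0, 17.5 and 16.5 regions in 1373M1, 12N1G and N2N1G, and 6, 5, 3.5 and 10.5 in 1398M1, 1399M4, 1398P2 and 1399P1. With 7 lines and so many candidates, values of r this high are those of the closest few, and the lines share the same libraries and depth for every gene.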

How the data were processed

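ATAC-seq peak lists of 14 libraries, 2 from each of 7 lines, were analysed as deposited, 1 list per library, not pooled. The submitters' processing notes name MACS2, Bowtie2, cutadapt 2.10, SAMtools and Picard, with the builds GRCm38 and mm10. What each did, and whether reads were moved to the transposase cut, is not given in the sources used here. The ratio deposited by the authors for each summit is the fold enrichment over local background. Each summit's p and q, as −log10 p-value and −log10 of the q-value, were also deposited by the authors, with no −log10 q below 1.3, a q of 0.05. The score deposited by the authors was not used. Folds were ranked only within a list. Promoter windows of GRCm38.p6 held a peak in 35.8% to 47.0% of cases per library, a check of the build.

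Fold and p-value together give the pileup and local background of a summit under a Poisson model. Where 2 solutions existed, the one whose pileup was nearest to a whole number was taken. Both were solved for every summit, with a series in log space above a −log10 p of 250. Of the pileups, 99.9997% were whole within 0.02, a share that the choice between solutions partly builds in. Peaks were merged at 1 bp of overlap. The count of regions per gene and line (mean of 2 libraries, gene body and 100 kb on either side, scaled by the line's total) was tested with limma 3.58.1 in R 4.3.3, with a trend, on log2(count + 0.5). Single values were tested by exact permutation in Python 3.11.15. In data simulated for this comparison with 18083 genes, limma called 70 of 100 genes changed 2-fold, 100 of 100 changed 4-fold and 8 of 17883 unchanged genes. The simulation holds sampling noise only, so it overstates the power between lines.

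Nfib, its family, the genes of the window and the 5 genes most like Nfib were named by rule. Regions were named if specific to a genotype, common to all libraries, at a gene end, or distal and open in all lines of a genotype or in 1 line. Some genes of the marker and target lists are not reported here. Regions shared by all libraries of 2 lines were named after their values were seen. The gene, lists and tests were chosen with earlier results of these data known. Alternatives covered the window size, scaling, filters, list length and each library or line left out.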

Additional observations from a re-analysis of the deposited data

How the results depend on the processing

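The log2 difference of Nfib favoured RPR2 lines in every alternative. In limma it was not past an adjusted p of 0.05 with 10 kb on either side (0.85), the gene body alone (0.95) or no scaling (0.78). Nor did it pass with equal numbers of peaks per library (1.11) or the lymph node lines averaged (0.79). Without both lymph node lines, a fit added after seeing the data, it was 0.64. That fit leaves 1 RPR2 line, so no p is given. Left out one at a time, libraries and lines gave 0.74 to 0.96, with limma adjusted p from 0.0211 to 0.175, and 10 of 21 such fits kept the call. The limma count of called genes, 203, was 81 with 10 kb, 1 with the gene body alone (834 at an unadjusted p under 0.05), 1 with no scaling, 444 with equal peaks, 0 with the lymph node lines averaged (2534 at an unadjusted p under 0.05), 381 with regions open in at least 1 line and 343 without both lymph node lines, and 0 to 723 with a library or line left out (2508 to 4221 at an unadjusted p under 0.05).

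The replicate numbers were not taken to pair libraries of different lines in the main fit. Replicate differences of 21 pairs of lines correlated at -0.158 to 0.158 (median 0.041), 2 of them above 0.1. Whether some replicates share a weak batch was not tested. The replicate block was a fit on the 14 libraries in place of line means, with an estimated correlation of 0.46 within a line. In it the log2 difference of Nfib was 0.85 (limma adjusted p = 0.00481), and 832 genes were called. That fit counts the 2 libraries of a line as separate, correlated units, although genotype varies only between lines. Its adjusted p is thus not a test over lines and does not strengthen the call.

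The difference of 11.4 regions passed 0.05 only after scaling (12.7, exact permutation p = 0.0286). It ranged from 9.5 to 13.7 with a library or line left out. It was smaller with 10 kb on either side (7.83), the gene body alone (7.33) and equal peaks (8.42), each with an exact permutation p of 0.0857. The difference was 7.38 without both lymph node lines and 8 in liver metastasis lines alone. Each of these leaves 1 RPR2 line, so no p is given. RPR2-specific regions numbered 0 with equal peaks, 7 without both lymph node lines, 7 in liver metastasis lines alone and 4 to 8 with a library or line left out. Nfibf/f-specific regions numbered 1 when 1 library of every line sufficed and 2 in liver metastasis lines alone. The ratio of scaled promoter pileup was 1.54 without both lymph node lines and 2.60 to 3.98 with a library or line left out. The promoter end had a peak in 14 libraries with a −log10 q of at least 3 and with equal peaks, the alternatives run for it. The short peak list of replicate 2 of 1398P2 limits what absent peaks mean there.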
